A study of Homo sapiens with 8 samples.

Results

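The collagen genes described here are all genes on the arrays whose single annotated symbol has the form COL, a number, A and a number, such as COL1A1. They are 41 of the 22465 genes with a single symbol. Expression was measured on Affymetrix transcriptome arrays in 2 immortalized human prostate lines: BPH-1 (BPH1 in the labels), of epithelial origin, and WPMY-1, a line of stromal myofibroblasts. The 8 arrays form 4 groups of 2, since each line received either vehicle or PAO, the Pao extract from the bark of Geissospermum vellosii, at 250 μg/ml for 48 h according to the labels. BPH-1 cells were kept in RPMI1640 and WPMY-1 cells in DMEM, both with serum, so the line and its medium cannot be told apart. Each line was grown alone, without the contact between epithelium and stroma found in the prostate. No source used here states that repeat arrays stem from independent cultures, and p-values therefore reflect only how far repeat arrays lay apart, a spread that may be technical.

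Collagens are the triple-helical proteins that give the extracellular matrix its strength, and each collagen type is a trimer of alpha chains encoded by separate genes. Fibrillar collagens such as types I and V form the fibrils of connective tissue. Collagens of basement membranes, such as type IV and the endostatin precursor type XVIII, lie under epithelia and around vessels, and the fibril-associated collagens with interrupted triple helices (FACIT), such as type XII, sit on the surface of fibrils. The remaining types are grouped here as other collagens and include the beaded filaments of type VI, the network of type VIII and the collagens that span the cell membrane. In the prostate, fibroblasts and myofibroblasts of the stroma are the main source of fibrillar collagen. The 41 genes fall into 10 fibrillar, 8 basement membrane, 10 FACIT and 13 other collagen genes. COL3A1, COL6A4, COL17A1 and COL26A1, which the class list also holds, had no probe set annotated with that symbol alone and were not analysed here. The fibrillar counts therefore leave out COL3A1, whatever its level.

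All values are log2 values after robust multi-array averaging (RMA), so a difference of 1 is a doubling. Repeat arrays had a Pearson's r from 0.995 to 0.997 across probe sets, and the median of all genes lay between 5.62 and 5.79 on each array. Of 13 epithelial marker genes, 12 were lower in vehicle-treated WPMY-1 than in vehicle-treated BPH-1 cells by limma's test, with array medians from 5.37 to 5.50 against 8.37 to 8.46. Of 14 stromal markers other than collagens, 13 were higher in WPMY-1 cells, with array medians from 5.22 to 5.26 and from 6.91 to 7.09. The markers match the labelled cell types of both lines. The deposited values carry no detection calls, so a gene was read as near background in a group where its mean was at or under the 95th percentile of 364 olfactory receptor genes, which lay between 4.44 and 4.55. By this rule 31 collagen genes were above background in every group and 9 were near it in every group (COL4A3, COL6A5, COL6A6, COL10A1, COL14A1, COL19A1, COL21A1, COL24A1 and COL28A1). COL9A1 lay at the limit, with group means from 4.45 to 4.52. The rule sets a low bar: COL2A1, the fibrillar collagen of cartilage, read 6.12 ± 0.09 in BPH-1 cells given vehicle and 6.27 ± 0.07 in the WPMY-1 line (SD, n = 2), so values near 6 that are alike in both lines may hold little signal. The plot of all 41 genes by array shows the few genes that stand away from this region.

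**Figure D1:**
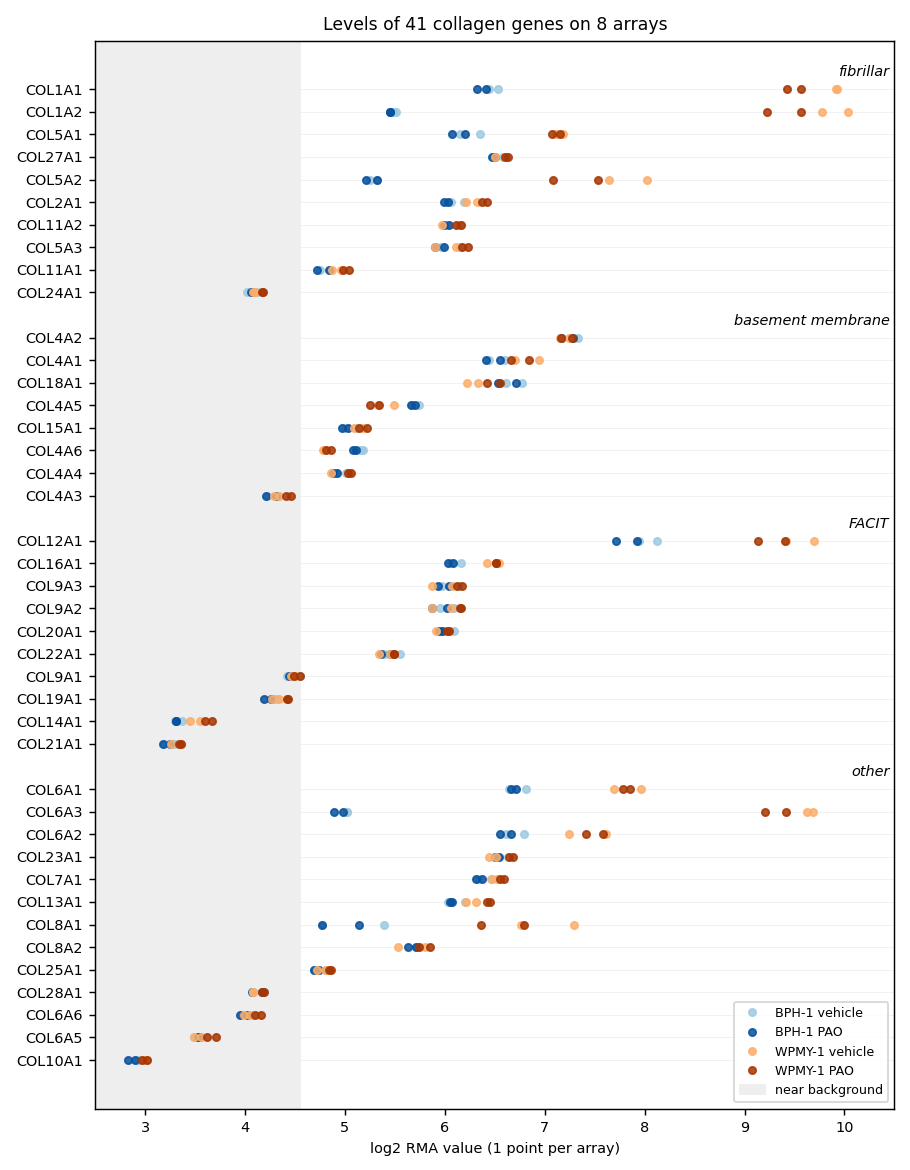
Log2 RMA values of the 41 collagen genes (rows, grouped by class) on the 8 arrays, 1 point per array, coloured by line and treatment, with the region at or under the highest background level of 4.55 shaded. COL1A1, COL1A2, COL5A2, COL6A3, COL8A1 and COL12A1 lie apart in WPMY-1 cells, and most other genes hold nearly the same value on all 8 arrays.

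The first comparison was the baseline, which asks what collagen transcripts each line held when given vehicle. With vehicle, WPMY-1 cells had more transcript of type I, V, VI, VIII, XII and XVI collagen genes, and BPH-1 cells had slightly more of 3 basement membrane collagen genes. In limma's test, with Benjamini-Hochberg adjustment over all genes, 10 of 41 collagen genes (24.4%) were higher in WPMY-1 cells, where 15.3% of all genes were. Only basement membrane genes were lower, 3 of 41 (7.32%), against 15.6% of all genes. The median difference over the 41 genes was 0.02, against -0.02 over all genes, so the line difference was carried by a minority of members. The arrays of the lines did not overlap for 17 collagen genes that were higher in WPMY-1 cells (41.5%, against 28.8% of all genes) and 5 that were lower (12.2%, against 34.1%). By class, 4 of 10 fibrillar, 2 of 10 FACIT, 4 of 13 other and 0 of 8 basement membrane genes were higher in WPMY-1 cells.

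**Figure D2:**
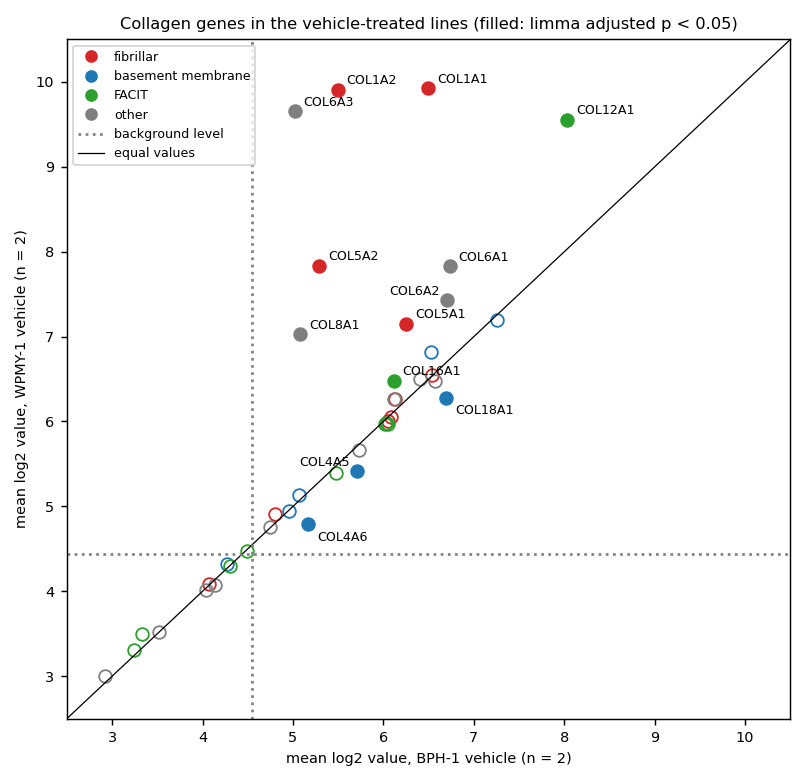
Mean log2 value of each collagen gene in vehicle-treated BPH-1 cells (x axis) against vehicle-treated WPMY-1 cells (y axis), 2 arrays each. Filled points passed limma at an adjusted p of 0.05, the solid line marks equal values and the dotted lines mark the background levels (4.44 in WPMY-1 and 4.55 in BPH-1 cells). COL6A3, COL1A2 and COL1A1 lie farthest above the line of equal values, by 4.64, 4.42 and 3.43.

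Type I collagen, the main fibril of connective tissue, is built from the products of COL1A1 and COL1A2. COL1A1 read 6.44 and 6.54 on the vehicle arrays of BPH-1 cells and 9.93 and 9.92 on those of WPMY-1 cells. COL1A2 read 5.48 and 5.51 in BPH-1 and 10.04 and 9.78 in WPMY-1 cells. The lines did not overlap for either gene, and the 2 chains of type I collagen were both far higher in the myofibroblast line. The log2 difference was 3.43 for COL1A1 (standard error 0.08, 10.8-fold, adjusted p = 2.8e-08 from limma) and 4.42 for COL1A2 (standard error 0.12, 21.4-fold, adjusted p = 9.3e-08 from limma). The BPH-1 values of COL1A2 were above background by the rule but under those of COL2A1 (6.06 and 6.19). How far its fold depends on the lowest value its probe set can read was not tested.

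Type V collagen co-assembles with type I and limits the width of its fibrils. COL5A2 read 5.25 and 5.32 in BPH-1 and 8.02 and 7.65 in WPMY-1 cells, a log2 difference of 2.55 (standard error 0.16, 5.84-fold, adjusted p = 7.4e-06 from limma). The BPH-1 values of COL5A2 also lay under those of COL2A1, so its fold has the same limit as that of COL1A2. COL5A1 read 6.15 and 6.35 in BPH-1 and 7.11 and 7.19 in WPMY-1 cells, a log2 difference of 0.90 (standard error 0.09, 1.87-fold, adjusted p = 1.1e-04 from limma). Both chains were higher in WPMY-1 cells without overlap of the arrays. The third type V gene, COL5A3, did not follow them, with 5.96 and 6.15 in BPH-1 and 5.91 and 6.11 in WPMY-1 cells. The remaining fibrillar genes (COL2A1, COL11A1, COL11A2, COL24A1 and COL27A1) differed between the lines by -0.03 to 0.14 and did not pass the test.

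Type VI collagen forms beaded filaments near the cell surface from the products of COL6A1, COL6A2 and COL6A3. COL6A3 read 5.02 and 5.02 in BPH-1 and 9.69 and 9.63 in WPMY-1 cells, a log2 difference of 4.64 (standard error 0.08, 24.9-fold, adjusted p = 1.2e-08 from limma). This was the largest line difference of the 41 genes. COL6A1 read 6.65 and 6.81 in BPH-1 and 7.70 and 7.96 in WPMY-1 cells, a log2 difference of 1.10 (standard error 0.10, adjusted p = 6.7e-05 from limma). COL6A2 read 6.61 and 6.79 in BPH-1 and 7.25 and 7.61 in WPMY-1 cells, a log2 difference of 0.73 (standard error 0.13, adjusted p = 0.0026 from limma). All 3 chains were higher in WPMY-1 cells without overlap, and the 95% interval of COL6A3 (4.45 to 4.83) lay above those of COL6A1 (0.87 to 1.33) and COL6A2 (0.44 to 1.02). The BPH-1 vehicle means were 5.02 for COL6A3, 6.73 for COL6A1 and 6.70 for COL6A2. Whether their probe sets differ in the lowest value they can read was not tested. COL6A5 and COL6A6 were near background in both lines. The promoter windows of COL6A3 and COL6A2 are shown because these chains of 1 trimer had the largest and the smallest line difference of the 3. The sequences run from 250 bases before to 50 bases after the annotated start, in RefSeq's annotation of GRCh38.p14 (chr2:237414115-237414414 on the minus strand and chr21:46097862-46098161 on the plus strand), with matches to the motifs named below in capitals.
COL6A3: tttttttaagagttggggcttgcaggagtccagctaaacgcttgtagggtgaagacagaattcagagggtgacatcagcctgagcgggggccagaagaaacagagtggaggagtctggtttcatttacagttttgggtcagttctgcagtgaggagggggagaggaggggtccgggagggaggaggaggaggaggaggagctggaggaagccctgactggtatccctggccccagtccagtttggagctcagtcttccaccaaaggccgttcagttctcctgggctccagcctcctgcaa
COL6A2: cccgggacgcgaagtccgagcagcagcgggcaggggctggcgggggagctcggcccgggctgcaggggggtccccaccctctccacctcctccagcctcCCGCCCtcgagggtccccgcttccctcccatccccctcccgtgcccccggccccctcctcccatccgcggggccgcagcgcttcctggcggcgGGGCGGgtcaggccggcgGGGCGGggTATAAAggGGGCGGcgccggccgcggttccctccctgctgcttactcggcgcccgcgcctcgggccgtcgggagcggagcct
The motifs searched on both strands were the CCAAT box (CCAAT or ATTGG), the GC box (GGGCGG or CCGCCC) and the TATA box (TATAAA or TTTATA). The window of COL6A2 held 4 GC boxes and 1 TATA box, and that of COL6A3 held no match to any of these letters. Among 35116 RefSeq promoter windows, 34.6% held a CCAAT box, 45% a GC box and 11.5% a TATA box. Of the 41 collagen genes, 30 had at least 1 window, and their 42 windows held these motifs in 31%, 57.1% and 16.7%. A match is a description of the letters and not evidence of a bound factor.

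Type XII collagen, encoded by COL12A1, binds to the surface of type I fibrils. Its gene was well above background in both lines, with 8.12 and 7.95 in BPH-1 and 9.70 and 9.41 in WPMY-1 cells. The log2 difference was 1.52 (standard error 0.13, 2.87-fold, adjusted p = 5.2e-05 from limma). COL16A1, another FACIT gene, read 6.06 and 6.17 in BPH-1 and 6.42 and 6.54 in WPMY-1 cells, a smaller difference of 0.37 (standard error 0.07, adjusted p = 0.0050 from limma). COL8A1, a chain of the type VIII network found around vessels and in remodelled tissue, read 5.39 and 4.77 in BPH-1 and 7.29 and 6.76 in WPMY-1 cells. The arrays of 1 group were wider apart for COL8A1 than for the other genes above, but the lines did not overlap, with a log2 difference of 1.95 (standard error 0.25, adjusted p = 5.1e-04 from limma). Its partner COL8A2 was alike in both lines (5.73 ± 0.02 and 5.67 ± 0.19, SD, n = 2).

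Among the basement membrane collagens, 3 genes were lower in WPMY-1 cells and the other genes did not pass the test. COL18A1 read 6.62 and 6.77 in BPH-1 and 6.22 and 6.33 in WPMY-1 cells, a log2 difference of -0.42 (standard error 0.09, adjusted p = 0.0093 from limma). COL4A6 read 5.16 and 5.18 in BPH-1 and 4.79 and 4.78 in WPMY-1 cells, a log2 difference of -0.38 (standard error 0.06, adjusted p = 0.0019 from limma). COL4A5 read 5.74 and 5.67 in BPH-1 and 5.49 and 5.33 in WPMY-1 cells, a log2 difference of -0.30 (standard error 0.08, adjusted p = 0.020 from limma). These 3 differences were at most 1.33-fold. COL4A6 passed the test whichever array was left out (adjusted p from 0.0038 to 0.017), while the other two depended on single arrays: COL4A5 failed the test without BPH-1 vehicle replicate 1 (-0.26, adjusted p = 0.11), without BPH-1 vehicle replicate 2 (-0.33, adjusted p = 0.055) or without WPMY-1 vehicle replicate 2 (-0.22, adjusted p = 0.11), and COL18A1 without BPH-1 vehicle replicate 2 (-0.34, adjusted p = 0.073) or without WPMY-1 vehicle replicate 1 (-0.36, adjusted p = 0.058). Without BPH-1 vehicle replicate 2, only COL4A6 of the 41 genes was lower in WPMY-1 cells. COL4A1 and COL4A2, the chains of the type IV network found under nearly all epithelia, read 6.52 ± 0.11 and 7.25 ± 0.12 in BPH-1 and 6.82 ± 0.17 and 7.20 ± 0.07 in WPMY-1 cells (SD, n = 2). For COL4A1 the arrays of the lines did not overlap, and the difference of 0.30 in favour of WPMY-1 had a 95% interval from 0.05 to 0.55, but it did not pass the test (adjusted p = 0.072 and unadjusted p = 0.024 from limma). COL4A3 was near background, and COL4A4 and COL15A1, the chain of a collagen close to type XVIII, differed by -0.01 and 0.07.

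Type IV genes lie in pairs that are read away from each other from a shared promoter, and the overlap of the windows of a pair is shown here because its genes can be set beside each other. The starts of COL4A1 and COL4A2 are 127 bases apart on chromosome 13 and those of COL4A5 and COL4A6 380 bases apart on chromosome X. The overlaps cover chr13:110307108-110307333 (226 bases) and chrX:108439588-108439708 (121 bases) in GRCh38.p14, both given on the plus strand, with the same motifs in capitals.
COL4A2 and COL4A1: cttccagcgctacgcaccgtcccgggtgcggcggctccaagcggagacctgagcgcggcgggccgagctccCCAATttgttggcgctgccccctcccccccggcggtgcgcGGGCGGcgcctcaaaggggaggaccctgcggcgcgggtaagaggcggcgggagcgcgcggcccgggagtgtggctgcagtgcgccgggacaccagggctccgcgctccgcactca
COL4A5 and COL4A6: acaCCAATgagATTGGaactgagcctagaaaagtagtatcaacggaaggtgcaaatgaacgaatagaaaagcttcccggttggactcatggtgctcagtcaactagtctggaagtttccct
The first overlap held 1 CCAAT box and 1 GC box, and the second held 2 CCAAT boxes. COL4A5 and COL4A6 were both lower in WPMY-1 cells (-0.30 and -0.38), while COL4A1 and COL4A2 differed by 0.30 and -0.06.

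The baseline call depended on the scaling for some members. When each array was centred on its median over all genes, the median line difference of all genes moved by 0.11, 17 collagen genes were higher and 2 lower in WPMY-1 cells, with COL4A5 lost. On the PAO arrays, a comparison added after the data were seen, 14 collagen genes were higher in WPMY-1 than in BPH-1 cells (34.1%, against 15.9% of all genes) and 2 lower (4.88%, against 14.9%). The 10 genes higher with vehicle were all among these 14, which also held COL2A1, COL7A1, COL13A1 and COL14A1, with differences from 0.23 to 0.39. On these arrays the lines did not overlap for 37 collagen genes that were higher in WPMY-1 cells (90.2%, against 39.8% of all genes) and 2 that were lower (4.88%, against 26.6%), with a median difference of 0.18 over the 41 genes against 0.05 over all genes. All 9 genes near background in every group were among the 37 higher genes. They include COL14A1, which is also 1 of the 14 genes above.

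The next comparison asked how treatment with Pao extract changed collagen transcripts in the myofibroblast line. In WPMY-1 cells COL1A1, COL1A2, COL5A2, COL6A3, COL8A1 and COL12A1 had the lowest differences of the 41 genes, from -0.29 to -0.53, and were the only collagen genes lower by at least 1.2-fold. None of the 41 collagen genes passed limma's test in either direction, where 0.0445% of all genes were higher and 0.0223% lower (10 and 5 of 22465). With a replicate block, COL1A1, COL1A2 and COL5A2 were lower (adjusted p = 0.049, 0.031 and 0.031 from limma). COL12A1 lay just past the threshold with it (adjusted p = 0.057 from limma). Over the alternatives that kept all arrays, the lowest adjusted p from limma was 0.063 for COL6A3 and 0.061 for COL8A1. What a repeat number marks is not stated, so the block was only an alternative, given with its counts over all genes in the last section. At an unadjusted p under 0.05, 4 collagen genes were lower (9.76%, against 4.67% of all genes) and 1 was higher (2.44%, against 6.51%). Past the 1.4-fold cutoff of the study, 2 collagen genes were lower (4.88%, against 0.632% of all genes) and 0 higher (against 0.392%). Past 1.2-fold, 6 were lower (14.6%, against 3.64% of all genes) and 0 higher (against 3.19%).

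COL1A1 read 9.93 and 9.92 with vehicle and 9.56 and 9.43 with Pao extract. COL1A2 read 10.04 and 9.78 with vehicle and 9.57 and 9.22 with the extract. For both chains of type I collagen every extract array lay below every vehicle array, by at least 0.36 for COL1A1 and 0.21 for COL1A2. The log2 difference was -0.43 for COL1A1 (standard error 0.08, 95% interval -0.60 to -0.25, a level lower by a factor of 1.35, adjusted p = 0.14 and unadjusted p = 4.4e-04 from limma). It was -0.51 for COL1A2 (standard error 0.12, 95% interval -0.79 to -0.23, a factor of 1.43, adjusted p = 0.26 and unadjusted p = 0.0029 from limma).

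COL5A2 read 8.02 and 7.65 with vehicle and 7.53 and 7.08 with the extract, a log2 difference of -0.53 (standard error 0.16, 95% interval -0.89 to -0.16, adjusted p = 0.35 and unadjusted p = 0.0099 from limma). The groups did not overlap, but the gap between them was 0.12, less than the distance between the 2 arrays of either group. Its partner COL5A1 read 7.11 and 7.19 with vehicle and 7.15 and 7.07 with the extract, a difference of -0.04 with a 95% interval from -0.24 to 0.16. COL6A3 read 9.69 and 9.63 with vehicle and 9.42 and 9.21 with the extract, a difference of -0.34 (standard error 0.08, 95% interval -0.54 to -0.15, adjusted p = 0.27 and unadjusted p = 0.0030 from limma). The groups did not overlap for COL6A3, with a gap of 0.21. The other type VI chains differed by -0.01 (COL6A1, 95% interval -0.24 to 0.22) and 0.07 (COL6A2), and their arrays overlapped. Whether the chains of type V or type VI collagen differed from each other in their response was not tested.

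COL12A1 read 9.70 and 9.41 with vehicle and 9.40 and 9.13 with the extract, a difference of -0.29 (standard error 0.13, adjusted p = 0.46 from limma) with a gap of only 0.0080 between the groups. COL8A1 read 7.29 and 6.76 with vehicle and 6.80 and 6.36 with the extract, so its groups overlapped, and the difference of -0.45 had a 95% interval from -1.03 to 0.13. For each of these 6 genes the array of repeat 2 lay below that of repeat 1 in both the vehicle and the extract group. For COL5A2, COL8A1 and COL12A1 the distance between the arrays of a group was close to the difference between the groups.

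**Figure D3:**
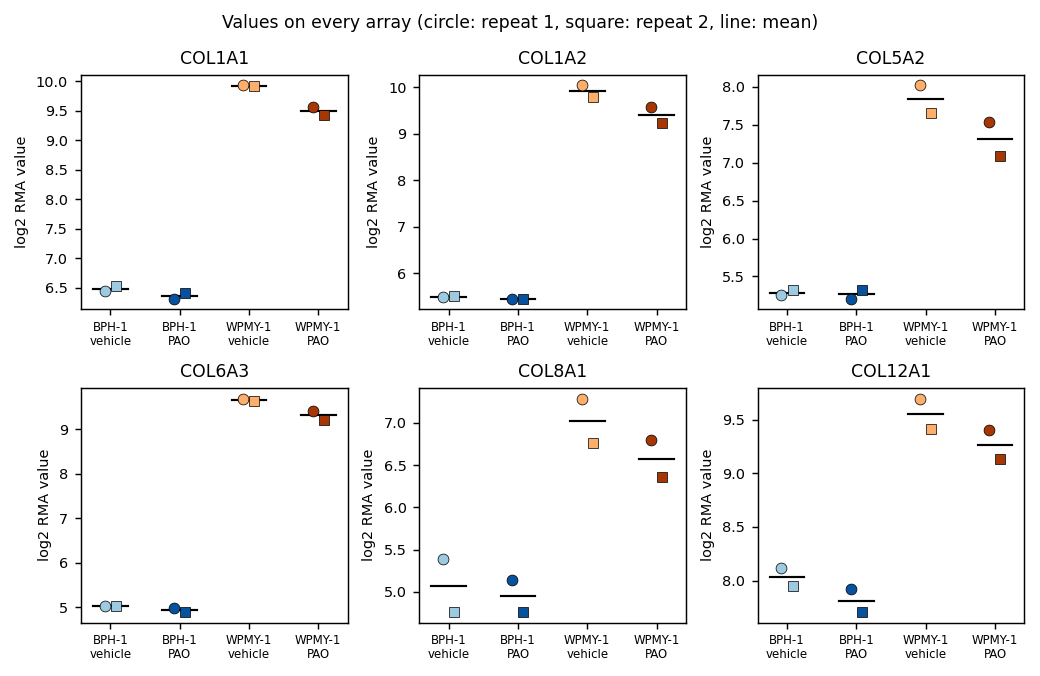
Log2 RMA values of COL1A1, COL1A2, COL5A2, COL6A3, COL8A1 and COL12A1 on every array (circle, repeat 1; square, repeat 2; line, mean of the group), by line and treatment, each panel with its own y axis that does not start at 0. In WPMY-1 cells the extract arrays lie below the vehicle arrays for 5 genes, and COL8A1 overlaps (6.80 with the extract against 6.76 with vehicle).

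The other collagen genes of WPMY-1 cells lay between -0.12 (COL4A5) and 0.21 (COL18A1). The highest differences were those of COL18A1 (6.28 ± 0.08 with vehicle and 6.48 ± 0.09 with the extract, SD, n = 2), COL5A3 (0.19), COL9A2 (0.19), COL23A1 (0.19) and COL13A1 (0.18). COL23A1, a collagen that spans the cell membrane, was the 1 gene above 0 at an unadjusted p under 0.05 (6.44 and 6.51 with vehicle, 6.64 and 6.68 with the extract, unadjusted p = 0.027 from limma). Over all 41 genes, 30 had a difference above 0 (73.2%, against 59.8% of all genes), with a median of 0.08 against 0.03. The arrays of the groups did not overlap for 20 genes that were higher with the extract (48.8%, against 27% of all genes) and for 5 that were lower (12.2%, against 16.6%). Of the 9 genes near background in every group, 7 were among those 20 higher genes, and none of the 5 lower genes was near background. The medians by class were 0.07 for fibrillar, 0.05 for basement membrane, 0.08 for FACIT and 0.09 for other collagen genes. The median of the 41 genes was 0.03 when each array was centred on its median, 0.04 without WPMY-1 vehicle replicate 1 and 0.12 without WPMY-1 vehicle replicate 2. The type IV pair COL4A1 and COL4A2 read 6.94 and 6.70, and 7.25 and 7.15, with vehicle, and 6.84 and 6.66, and 7.27 and 7.16, with the extract. Both overlapped, with differences of -0.07 and 0.02.

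The count past 1.4-fold rested on single arrays. COL5A2 and COL1A2 passed that cutoff with all arrays, 4 collagen genes passed it without WPMY-1 PAO replicate 1, and 0 without WPMY-1 PAO replicate 2 or without WPMY-1 vehicle replicate 1. Of the 14 stromal markers other than collagens, none passed limma's test in this comparison. A difference below 0 was seen in 12 of the 14 (against 40.2% of all genes), with a median of -0.14, and 6 were lower without overlap (against 16.6% of all genes). Their summed linear level was 3454 to 3534 with vehicle and 3129 to 3159 with the extract. The 9 leukocyte markers had a summed level of 159 to 166.5 with vehicle and 171 to 178 with the extract. Those of the 8 endothelial markers were 223 to 237 and 252 to 254. A difference above 0 was seen in 7 of 9 leukocyte markers (median 0.06) and 8 of 8 endothelial markers (median 0.11), against 59.8% of all genes. In each of these 2 lists, 4 markers were higher without overlap, against 27% of all genes. PTPRC (2.43) and PECAM1 (3.06) were near background with vehicle, but 3 of 9 leukocyte and 5 of 8 endothelial markers were above it. The highest were CD79A (5.42) and CLDN5 (5.88). The part of these shifts in the collagen values was not tested. In such bulk samples, fewer cells that make a transcript and less of it per cell cannot be told apart.

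In BPH-1 cells the differences of the collagen genes between Pao extract and vehicle were small. No collagen gene passed limma's test, and none of all 22465 genes did (0%). At an unadjusted p under 0.05 the counts were 0 of 41 collagen genes, against 2.27% of all genes higher and 1.86% lower. No collagen gene reached 1.2-fold in either direction (1.48% of all genes were higher and 0.913% lower by as much), or 1.4-fold (0.236% and 0.0623%). The differences ran from -0.22 (COL12A1) to 0.01 (COL6A5), and 40 of 41 were below 0 (97.6%, against 57% of all genes), with a median of -0.06 against -0.01 over all genes. This sign rested on 1 array: without BPH-1 vehicle replicate 2, the median of the 41 genes was 6.4e-06. Markers of cell types other than epithelium also lay mostly below 0 in this line, with 9 of 9 leukocyte markers (median -0.05, 5 lower without overlap), 7 of 8 endothelial markers (median -0.05) and 9 of 14 stromal markers (median -0.06). Their summed levels were 176 to 179 with vehicle and 167 to 175 with the extract for leukocyte markers, 244 to 258 and 238 to 247 for endothelial markers, and 1129 to 1142 and 977 to 1101 for stromal markers. PTPRC (2.42) and PECAM1 (3.03) were near background with vehicle, but 4 of 9 leukocyte and 5 of 8 endothelial markers were above it. The part of these shifts in the collagen values was not tested. The arrays of the groups did not overlap for 10 genes that were lower (24.4%, against 18.8% of all genes) and for 0 that were higher (against 14.4%).

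COL12A1 had the largest difference in this line, with 8.12 and 7.95 with vehicle and 7.92 and 7.71 with the extract. The groups were 0.03 apart, and the difference of -0.22 had a 95% interval from -0.52 to 0.08. COL1A1 read 6.44 and 6.54 with vehicle and 6.32 and 6.41 with the extract, a difference of -0.12 with an interval from -0.30 to 0.05. The other genes with the largest differences were COL8A1 (-0.12, with an interval from -0.70 to 0.46), COL2A1 (-0.11), COL5A1 (-0.11) and COL5A3 (-0.11). COL1A2, COL5A2 and COL6A3, which were low in BPH-1 cells given vehicle, differed by -0.04, -0.02 and -0.08. By class the medians ran from -0.07 for FACIT to -0.05 for basement membrane collagen genes.

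**Figure D4:**
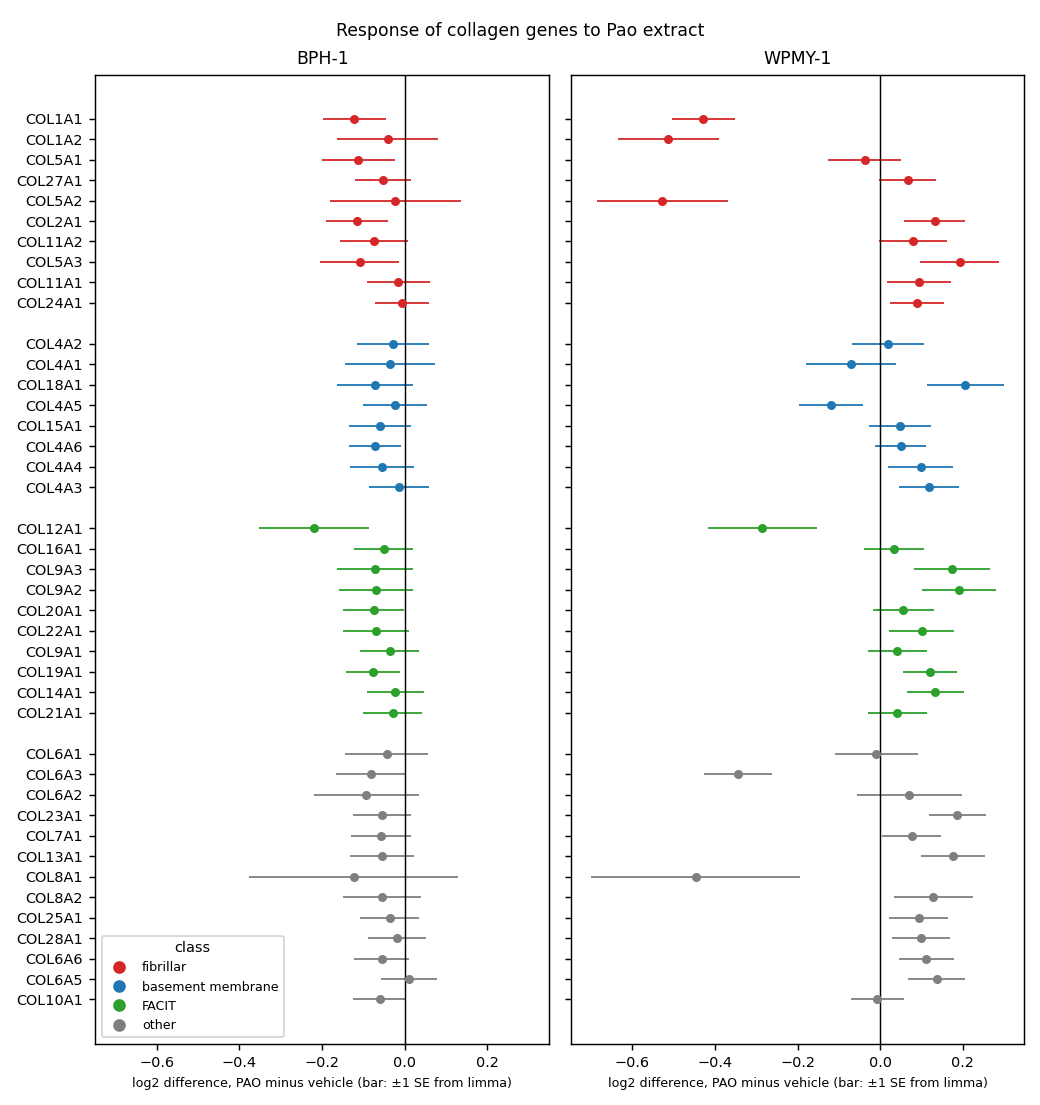
Log2 difference between Pao extract and vehicle for each collagen gene in BPH-1 cells (left) and WPMY-1 cells (right), with bars of 1 standard error from limma, coloured by class. In BPH-1 cells the differences lie between -0.22 and 0.01, and in WPMY-1 cells 6 genes lie between -0.29 and -0.53 while the others lie between -0.12 and 0.21.

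The difference of the effects between the lines was tested with limma's interaction term. It passed the threshold for 0 of 41 collagen genes and for 0% of all genes. At an unadjusted p under 0.05, 2 collagen genes had a lower effect in WPMY-1 than in BPH-1 cells (4.88%, against 2.6% of all genes) and 2 a higher one (4.88%, against 4.53%). COL1A1 differed by -0.31 (standard error 0.11, unadjusted p = 0.021, adjusted p = 0.69 from limma) and COL1A2 by -0.47 (standard error 0.17, unadjusted p = 0.026, adjusted p = 0.69 from limma). COL23A1 and COL2A1 differed by 0.24 and 0.25 (unadjusted p = 0.039 and 0.047 from limma). For COL5A2 the difference of -0.50 had a 95% interval from -1.02 to 0.01. A lower effect in the myofibroblast line was therefore not shown for any collagen gene after adjustment. In BPH-1 cells given vehicle, COL1A2, COL5A2 and COL6A3 had means of 5.49, 5.29 and 5.02, under the 6.12 of COL2A1. Whether such low values could have read lower with the extract was not tested. The vehicle arrays of WPMY-1 cells enter both the interaction contrast and the baseline, so only the levels are set side by side. The line difference of COL1A1 was 3.43 with vehicle and 3.13 with the extract, that of COL1A2 4.42 and 3.94, that of COL5A2 2.55 and 2.04, and that of COL6A3 4.64 and 4.38. The line difference of all 4 genes passed limma's test on both pairs of groups.

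Collagen chains are hydroxylated, folded and exported in the endoplasmic reticulum, then trimmed, crosslinked and bound by receptors outside the cell. The genes of these steps were taken from 3 lists. With vehicle, 13 of 22 measured genes of folding and modification were higher in WPMY-1 cells by limma's test and 2 lower, among them SERPINH1, the collagen chaperone HSP47, at 8.99 ± 0.08 in WPMY-1 against 7.70 ± 0.11 in BPH-1 cells. Of 13 genes of procollagen cleavage and crosslinking 9 were higher and 2 lower, with the lysyl oxidase LOX at 10.33 ± 0.14 against 6.14 ± 0.01. Of 10 receptor genes 5 were higher and 2 lower. Over all genes, 15.3% were higher and 15.6% lower in this comparison. The collagen receptor kinase DDR2 read 4.34 ± 0.02 in BPH-1 cells, near background, and 8.69 ± 0.22 in WPMY-1 cells, while DDR1 read 7.58 ± 0.10 and 6.46 ± 0.04 (SD, n = 2).

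After treatment none of these genes passed limma's test in either line, and the medians of the lists in WPMY-1 cells were 0.01, -0.02 and -0.02. The largest differences there were those of PLOD2, a lysyl hydroxylase of collagen (10.35 ± 0.33 with vehicle and 9.85 ± 0.08 with the extract, a difference of -0.51, adjusted p = 0.33 from limma), LOX (10.33 ± 0.14 and 9.98 ± 0.0046, a difference of -0.34, adjusted p = 0.33 from limma) and the integrin subunit ITGA2, which binds collagen (8.34 ± 0.06 and 8.02 ± 0.17, a difference of -0.32, adjusted p = 0.38 from limma). The arrays of these 3 genes did not overlap between the groups. By list, 3 of 22, 1 of 13 and 2 of 10 genes were lower without overlap, against 16.6% of all genes. Higher without overlap were 0, 1 and 2 genes, against 27% of all genes. SERPINH1 differed by 0.01 and DDR2 by 0.04.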

How the data were processed

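The authors deposited log2 values after RMA, in a table of 67528 probe sets by 8 arrays. RMA is named in the submitters' processing notes with no version number, and the build was not given in the sources used here. RMA subtracts background and brings the probe values of the arrays to a common distribution, which can compress differences of dim probe sets. In the deposited values, the array medians over all probe sets still ran from 4.50 to 4.57. The labels and the legend of the study give a treatment of 48 h, and its methods a shorter one. Gene symbols came from the platform's annotation of the probe sets (23781 with 1 symbol, 1543 with several, 42204 not listed), and the probe set of highest mean stood for its gene, which left 22465 genes. Of the 41 collagen genes 2 had several probe sets, COL11A2 and COL27A1. No filter and no pseudocount were used.

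A mean per group was estimated by limma 3.58.1 (R 4.3.3) using the 8 arrays jointly and moderated variances, and p-values were adjusted over the 22465 genes. Counts at 1.4-fold use the difference of mean log2 values. With 2 arrays a group, exact permutation cannot reach a two-sided p below 0.333, and the number of arrays limits the precision. The members and gene lists were chosen with earlier results of these data known. Array values are given for genes past the test or 1.4-fold in a treatment comparison, the 6 largest differences of each, the 3 highest levels, the 3 largest line differences each way, and their chain partners. Beyond this rule, COL7A1, COL9A1, COL9A2, COL13A1, COL14A1, COL15A1, COL16A1, COL19A1 and COL23A1 were named after their values were seen. Promoter windows came from RefSeq. The alternatives were other scalings, probe set choices, variance models, filters and cutoffs, a fit within each line, a replicate block, the methods' t-test and leaving out each array. Figures were drawn with matplotlib 3.10.9, and the fit was tested on simulated data.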

Additional observations from a re-analysis of the deposited data

Results flagged for a closer look

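For 3 of 41 collagen genes the arrays of the groups did not overlap in either line and the treated arrays lay on opposite sides, lower than vehicle in BPH-1 and higher in WPMY-1 cells. The difference of the effects was 0.25 for COL2A1, 0.20 for COL19A1 and 0.12 for COL4A6, with adjusted p = 0.69, 0.69 and 0.70 from limma's interaction term, so none passed the threshold. COL2A1 read 6.06 and 6.19 with vehicle and 5.99 and 6.03 with the extract in BPH-1 cells, and 6.22 and 6.32, then 6.37 and 6.42, in WPMY-1 cells. COL19A1 was near background in every group. The share of 7.32% lay beside 7.6% of all genes with opposite sides (1707 genes), and beside 5.51% with the same orientation (1237 genes).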

How the results depend on the processing

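Of 578 values of single genes under the alternatives, 550 kept their direction and their side of the threshold. For many of them the direction was fixed. Leaving out an array of the other line does not alter a difference within a line. Only 2 collagen genes had several probe sets, and the variance models alter only the test. The count of 550 is therefore not a measure of robustness. In WPMY-1 cells, the count of 2 collagen genes lower by 1.4-fold was 6 with a cutoff of 1.2-fold, 0 with 2-fold, 1 after a further quantile normalization (COL5A2) and 3 with each array centred on its median (COL8A1 added, at -0.50), and ranged from 0 to 4 when single arrays were left out. The labels number the repeats alike in all groups without saying what a number marks, so the replicate block was only an alternative. With it 3 collagen genes were lower in WPMY-1 cells, COL1A1 (adjusted p = 0.049), COL1A2 (0.031) and COL5A2 (0.031), and over all genes 98 were higher and 125 lower. Deviations of the arrays with the same number correlated with r = 0.43 in WPMY-1 and 0.50 in BPH-1 cells over all genes, with 2 repeats per group. Over the 41 collagen genes, r was 0.90 in WPMY-1 and 0.89 in BPH-1 cells. Between the lines, r was 0.34 for the vehicle and 0.20 for the PAO arrays over all genes, and 0.68 and 0.46 over the collagen genes. With the block 12 collagen genes were higher at baseline, and the other counts of collagen genes past limma were the same as without it. At baseline, the count of 10 higher genes was 17 after centring and 1 with the methods' t-test (COL6A3, with 17 higher and 13 lower over all genes), and ranged from 10 to 11 without single arrays. The count of 3 lower genes was 0 with the methods' t-test and ranged from 1 to 3 without single arrays. With the methods' t-test the other calls at baseline were lost, and COL4A5 was lost also after centring (-0.19, adjusted p = 0.16) and quantile normalization (-0.21, adjusted p = 0.096). The median of the collagen genes in BPH-1 cells ranged from -0.10 to 6.4e-06 without single arrays. The difference of the effects for COL12A1, -0.07, ranged from -0.21 to 0.078 without single arrays and turned to 0.04 without BPH-1 PAO replicate 1, 0.02 without BPH-1 vehicle replicate 2, 0.07 without WPMY-1 PAO replicate 2 and 0.078 without WPMY-1 vehicle replicate 1. COL8A1 in BPH-1 cells, -0.12, ranged from -0.43 to 0.19 and turned to 0.06 without PAO replicate 2 and 0.19 without vehicle replicate 1. Where a group was left with 1 array, that array was assumed to vary like the others. The cause of these changes was not tested.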
